A study of Mus musculus with 15 samples.

Results

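The mRNA levels of 34 genes of B-cell receptor signalling were followed in the mouse lymphoma line A20 and in 4 CRISPR clones of it that carry mutations in Foxp1. The genes were taken from a list that was chosen with earlier results of these data known, and were matched by gene symbol. They are the receptor's signalling subunits, its tyrosine kinases and adaptors, the phospholipase and exchange factors, the PI3K arm, the protein kinase C, NF-kB and NFAT arm, and the inhibitory receptors and phosphatases. All 34 were among the 13904 genes with enough reads to be tested, out of 41388 genes in the count tables.

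The B-cell receptor is a membrane immunoglobulin that signals through the paired chains Cd79a and Cd79b. When antigen binds, Src-family kinases phosphorylate these chains and Syk docks on them, and a complex around the adaptor Blnk brings Btk and the phospholipase Plcg2 together, so that calcium, protein kinase C, Ras and NF-kB pathways are switched on. PI3K adds a membrane lipid signal that recruits Btk and Akt, while inhibitory receptors such as Cd22 and Fcgr2b call in the phosphatases Ptpn6 and Inpp5d, which reverse the tyrosine and the lipid phosphorylation.

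A20 is a B-cell lymphoma line of BALB/c origin and was the unedited parental line here, labelled WT. The clones E6.1 and E6.2 have a mutation in exon 6 of Foxp1, a forkhead transcription factor of B cells, and the clones E7.1 and E7.2 have one in exon 7. Each line was sequenced as 3 libraries from separate passages (n = 3 throughout), giving 15 libraries of 26328054 to 39181530 reads assigned to genes. Each clone grew from single sorted cells after transfection of a guide plasmid, so a difference between one clone and the parental line, or between the exons, cannot be told apart from a difference between clones, and the p-values measure the spread between passages of a line.

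Foxp1 mRNA, the targeted gene, was 102, 166 and 147 counts per 1000000 reads (CPM, scaled by the trimmed mean of M values) in the parental libraries 1, 2 and 3. E6.1 had 103, 99.5 and 109 CPM and E6.2 had 109, 104 and 105 CPM, overlapping the lowest parental library. It was 41.7, 64.2 and 64.3 CPM in E7.1 and 37.1, 39.6 and 52.3 CPM in E7.2, below every other library. The fit in edgeR (quasi-likelihood test, Benjamini-Hochberg adjusted) put Foxp1 below the parental line in E7.1 by a log2 fold change of -1.29 (adjusted p = 0.00688) and in the second exon 7 clone by -1.69 (adjusted p = 0.00116). The E7 clones were also below the E6 clones (-1.09, adjusted p = 0.000609, edgeR). The mRNA level does not show whether the edited transcript gives protein. The 8 B-cell markers examined were above 1 CPM in all 15 libraries, whereas the T-cell, myeloid and NK-cell marker lists summed to at most 2.71, 8.10 and 3.93 CPM in any library, with Cd3e, S100a8, Ncr1 and Nkg7 at 0 in all. The plasma-cell list summed to 877 to 1170.2 CPM in E6.2 and to 1420.3 to 2047 CPM in the other lines. Most of this sum was 1 gene, Jchain, at 859 to 1991 CPM over the 15 libraries. Irf4, the next highest of the list, was at 9.86 to 77.6 CPM. The sum therefore mainly gives the level of Jchain and does not show a difference in the list as a whole. The part of these genes in the results was not tested.

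The promoters of the 3 genes that differed most clearly between the E7 and the E6 clones (smallest p, below) are shown for reference, from 250 bases before to 50 after the start in RefSeq (GRCm38.p6, the build also known as mm10). Each is written 5′ to 3′ on the strand of its gene. Capitals mark GAGGAA, a core bound by the B-cell and myeloid factor PU.1, found on either strand, and the forkhead core GTAAACA and the octamer core TTTGCAT were searched in the same way. Inpp5d lies at chr1:87620062-87620361 on the plus strand and Cd79a at chr7:24897247-24897546 on the plus strand, while Ptpn6 lies at chr6:124738660-124738959 on the minus strand and holds none of the 3 motifs.
Ptpn6: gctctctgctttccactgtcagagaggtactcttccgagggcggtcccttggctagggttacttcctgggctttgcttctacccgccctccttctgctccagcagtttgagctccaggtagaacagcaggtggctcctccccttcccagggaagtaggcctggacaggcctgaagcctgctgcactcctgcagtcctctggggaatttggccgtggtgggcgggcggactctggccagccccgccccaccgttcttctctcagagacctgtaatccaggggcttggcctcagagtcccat
Inpp5d: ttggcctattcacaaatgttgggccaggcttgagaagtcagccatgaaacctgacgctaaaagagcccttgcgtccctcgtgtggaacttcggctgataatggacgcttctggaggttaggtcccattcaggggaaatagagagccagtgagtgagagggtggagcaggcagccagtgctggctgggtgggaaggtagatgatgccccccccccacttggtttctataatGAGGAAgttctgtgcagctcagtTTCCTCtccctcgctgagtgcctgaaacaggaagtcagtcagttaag
Cd79a: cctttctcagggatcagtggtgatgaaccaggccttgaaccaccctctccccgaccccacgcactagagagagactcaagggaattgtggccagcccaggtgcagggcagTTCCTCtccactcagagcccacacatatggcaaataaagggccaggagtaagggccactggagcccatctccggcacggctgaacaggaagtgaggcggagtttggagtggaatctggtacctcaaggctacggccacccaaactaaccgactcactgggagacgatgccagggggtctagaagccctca
Windows were found for 27 of the 34 genes, 34 windows in all because some genes have several starts. The forkhead core was in 1 of these windows (2.94%), that of Akt1, and in 3.65% of all 32851 mouse promoter windows. The octamer core was in the windows of Blnk, Pik3cd and Prkcb (11.8% of the windows, 4.63% of all), and GAGGAA in those of 11 genes (32.4%, 28.3% of all), namely Btk, Cd72, Cd79a, Grb2, Inpp5d, Pik3ap1, Pirb, Rasgrp3, Syk, Vav1 and Vav2. A match describes letters in a window and not binding. No window was at hand for Blk, Cd79b, Lat2, Lyn, Malt1, Nfatc1 and Rac2.

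In the parental line nearly the whole pathway was transcribed, with levels per length that spanned a wide range. As RPKM (CPM per kilobase of exon), Prkcb, the protein kinase C of B cells, was the highest at 240.0 ± 46.9 (mean ± SD, n = 3), followed by Cd79b at 174 ± 22.5 and the Src-family kinase Fyn at 95.03 ± 23.2. Prkcb and Cd79b overlapped in range, and so did Fyn and the Ras exchange factor Rasgrp3 at 93.7 ± 2.53. The median of the 34 genes was 17.5 RPKM and that of all tested genes 5.90 RPKM, with 28 of the 34 above the latter.
Levels were lowest among the inhibitory receptors. Cd72 stood at 3.18 ± 1.66 RPKM, Fcgr2b at 2.99 ± 0.986 RPKM and the paired immunoglobulin-like receptor Pirb at 0.0610 ± 0.0285 RPKM. Pirb was close to the level of 3 reads in a library (0.0751 to 0.118 CPM), and its range over all 15 libraries was 0.0902 to 0.626 CPM. Cd22 was an exception among the inhibitory receptors, at 16.9 ± 1.23 RPKM. Cd79a, the partner chain of Cd79b, was at 59.1 ± 8.49 RPKM, below every library of Cd79b.

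**Figure D1:**
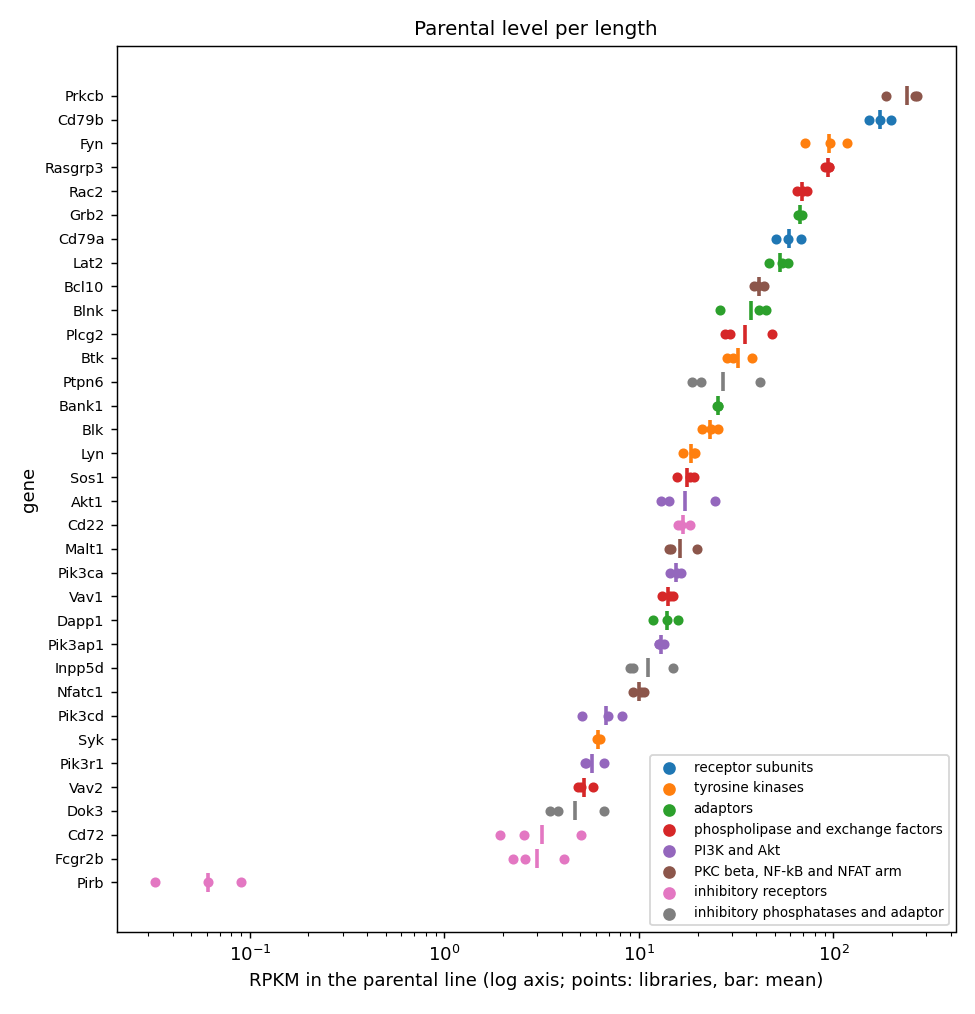
Level per transcript length of the 34 genes in the parental line, in RPKM on a log axis. Points are the 3 libraries, the bar is their mean and colours give the role. Prkcb and Cd79b are at the top (240.0 and 174 RPKM) and Pirb is far below all others (0.0610 RPKM).

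Set against the parental line, no clone had any of the 34 genes past the threshold. Adjusted over all genes (edgeR's quasi-likelihood test, Benjamini-Hochberg), 0 of 34 genes passed in E6.1 (0.324% of all tested genes did), 0 in E6.2 (1.17%), 0 in E7.1 (1.22%), 0 in E7.2 (0.295%) and 0 for the mean of the 4 clones (0.503%). Unadjusted p-values under 0.05 were found for 4 genes in E6.1 (6.71% of all genes), 3 in E6.2 (13.1%), 15 in E7.1 (20%), 8 in E7.2 (13.3%) and 4 for the mean of the clones (9.9%). DESeq2 called 0, 1, 9, 3 and 0 genes in the same order. The shares of all tested genes called by DESeq2 are not given here, so its counts cannot be read as a result about these genes. The 15 genes of E7.1 are 44.1% of the list, 10 higher and 5 lower.
The E7.1 genes nearest to the threshold were Fyn (log2 fold change -0.81, adjusted p = 0.0519), the tyrosine phosphatase Ptpn6 (1.12, 0.0546), the Ras exchange factor Sos1 (-0.74, 0.0559), Fcgr2b (0.90, 0.058) and the adaptor Blnk (-0.85, 0.0645), all by edgeR's quasi-likelihood test. The number that passed in E7.1 moved with single libraries: 9 genes passed without parental replicate 1, 11 without E6.2 replicate 3 and 6 without E7.2 replicate 3, against 0 in the remaining 12 such fits. The shares of all tested genes in these fits are not given here, so the counts show only how the calls move. Parental replicate 1 was the highest of its line for 21 of the 34 genes, and Ptpn6 in it was 118 CPM against 52.4 and 58.2 CPM in the other parental libraries. The comparisons with the parental line share its 3 libraries.
Across the list the median log2 fold change was 0.02 for E6.1 (0.00 for all tested genes) and -0.14 for E6.2 (0.06). For E7.1 it was 0.11 (-0.02 for all tested genes) and for E7.2 0.19 (0.00). The SD between libraries of one line of the median level of the 34 genes was 0.08 on the same scale.

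**Figure D2:**
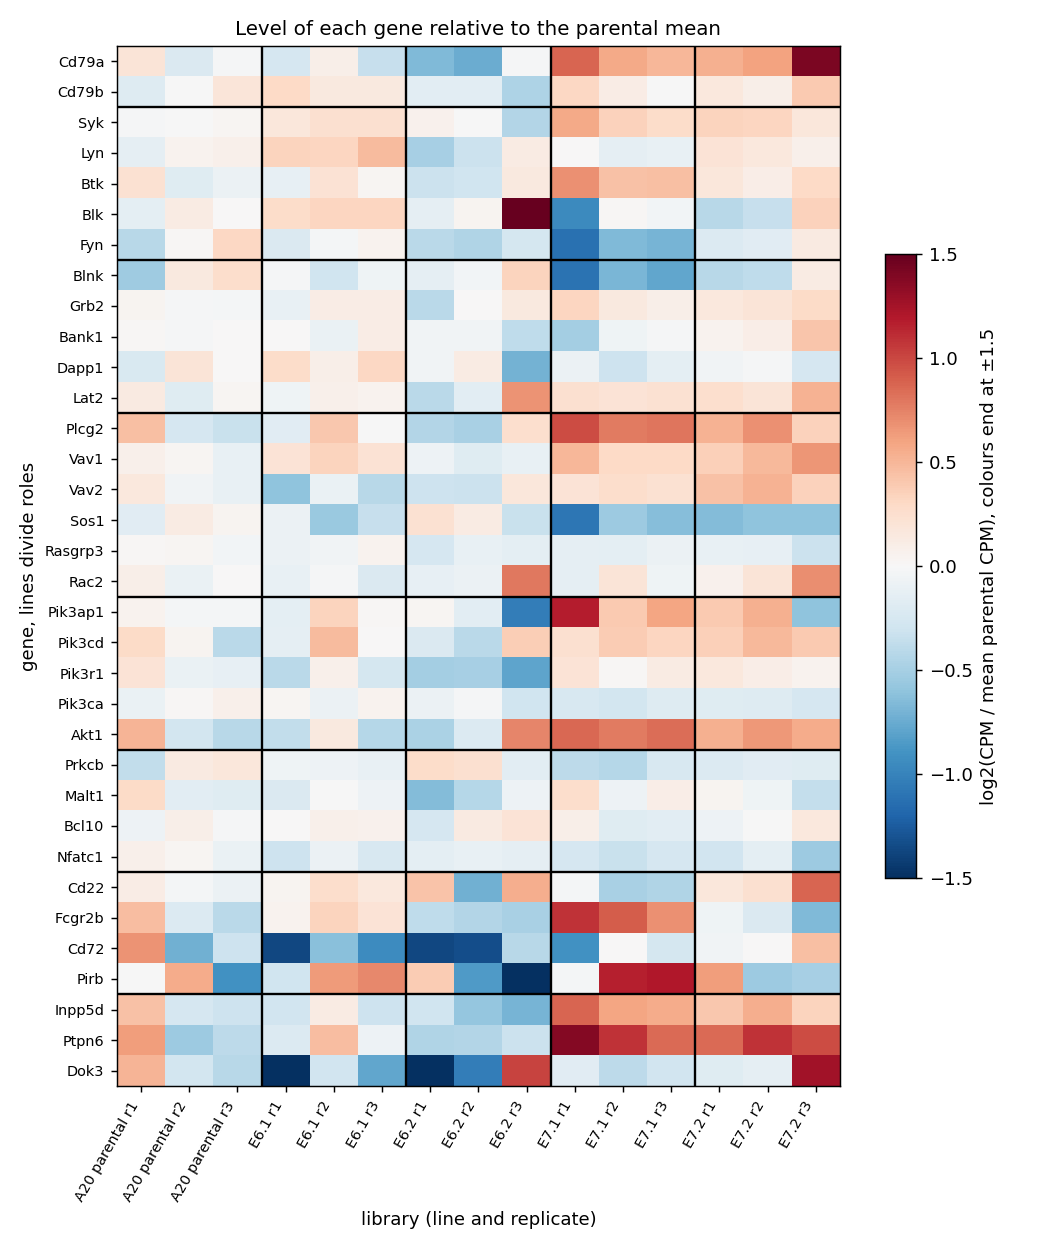
Level of each of the 34 genes (rows, grouped by role) in each of the 15 libraries (columns, r1 to r3 are replicates), as log2 of CPM over the parental mean CPM. Colours end at ±1.5, which 3 of 510 values pass; Ptpn6, Inpp5d, Plcg2 and Akt1 are red in all 6 E7 libraries and also in parental replicate 1.

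The clones of the 2 exons were compared next, with 6 libraries on each side. Of the 34 genes, 12 passed the test of the E7 clones against the E6 clones (35.3% of the list, against 12.1% of all tested genes). The list was chosen with earlier results of these data known, so these shares cannot show whether the pathway is over-represented. Higher in the E7 clones were 10 genes (6.21% of all genes were called higher), namely Ptpn6, Cd79a, Inpp5d, Cd72, Akt1, Plcg2, Vav2, Pik3r1, Btk and Vav1, and lower were Sos1 and Blnk (5.85% called lower). Unadjusted p-values under 0.05 were found for 17 genes (30.3% of all genes), and DESeq2 called 15 (its share of all tested genes is not given here). The median log2 fold change was 0.22 for the list and -0.03 for all tested genes.
For 5 genes all 6 E7 libraries lay on one side of all 6 E6 libraries, which 3.55% of all tested genes also did: Ptpn6, Inpp5d, Cd79a and Vav2 were above and Prkcb below. Prkcb itself did not pass (log2 fold change -0.29, adjusted p = 0.136, edgeR's quasi-likelihood test).
Tested for any difference among the 5 lines, 8 of the 34 genes passed (6.28% of all tested genes), with adjusted p-values from edgeR's quasi-likelihood test of 0.00959 for Ptpn6 to 0.0365 for Sos1. The others were Fcgr2b, Inpp5d, Cd79a, Vav1, Pik3r1 and Vav2. This count was 16 without E6.2 replicate 3, 13 without parental replicate 1, 4 without E7.1 replicate 1 and 5 without parental replicate 2 or 3, E6.1 replicate 1 or 3, E7.1 replicate 2 or 3 or E7.2 replicate 1 or 2.

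**Figure D3:**
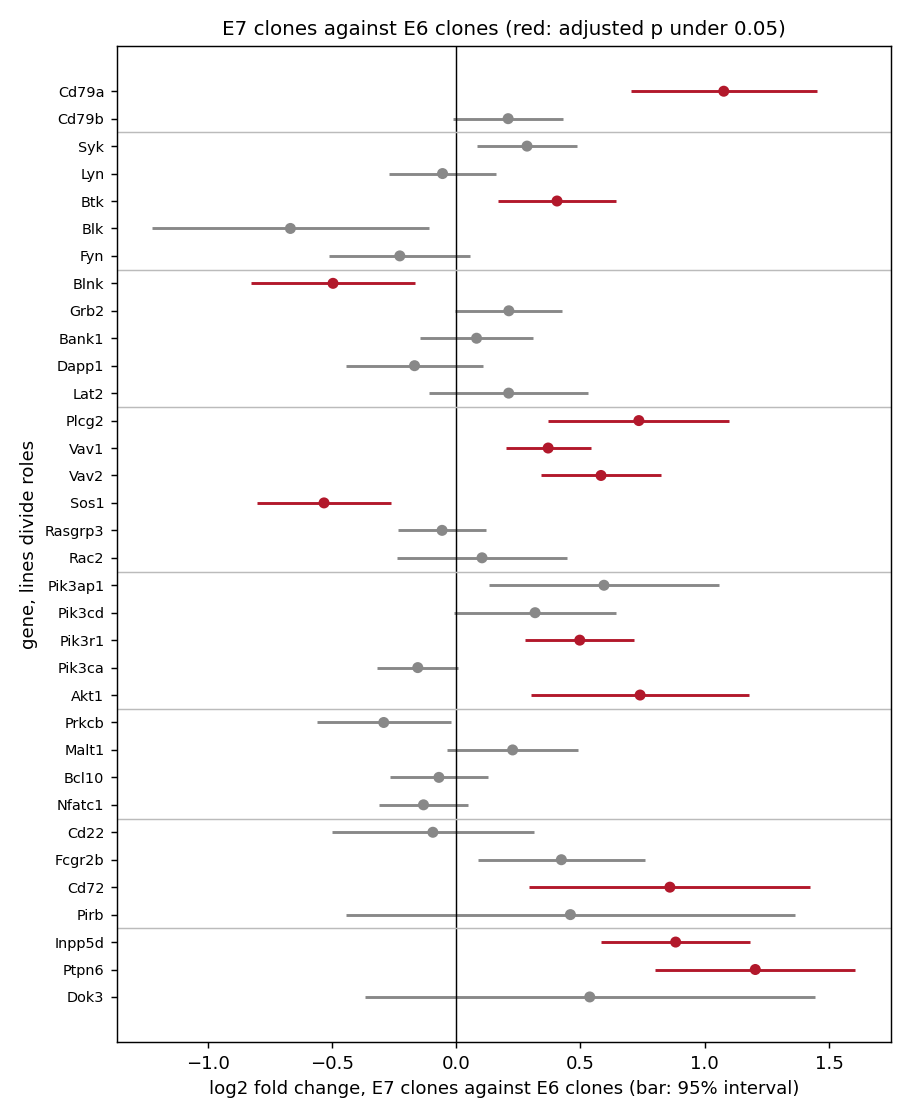
Log2 fold change of the E7 clones against the E6 clones for each of the 34 genes, grouped by role, with its 95% interval. Red marks the 12 genes with an adjusted p under 0.05; 10 lie to the right of 0 and Sos1 and Blnk to the left.

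Of the 12 differences, 5 passed without any one of the 15 libraries and under all 8 other settings tried, 1 of which left E6.2 with a single library: Cd79a, Vav2, Pik3r1, Inpp5d and Ptpn6. Vav1 was lost when E6.1 replicate 1 or 3 was left out, Plcg2 when E6.1 replicate 1 or 3 or E7.2 replicate 2 was, and Sos1 when E6.1 replicate 1 or 3, E6.2 replicate 1 or E7.2 replicate 1 was. Btk and Akt1 were each called in 6 of the 15 fits and lost without E6.1 replicate 1 or 3, E6.2 replicate 1 or 2, E7.2 replicate 1 or 2 or any E7.1 library. Cd72 was called in 4 of the 15 (without parental replicate 1 or 2, E6.1 replicate 2 or E6.2 replicate 3) and Blnk in 2 (without parental replicate 1 or E7.2 replicate 3). With a replicate block, a term for the replicate number, Cd72 was lost as well (adjusted p = 0.0603, edgeR's quasi-likelihood test). Blnk was also lost under 4 of the 8 other settings (DESeq2 size factors, no filter on low counts, the offset for length and GC content, and without parental replicate 1 and E6.2 replicates 1 and 3 together). The count fell to 5 without E6.1 replicate 1 or 3 and to 7 without E7.2 replicate 1 or 2. The longest transcripts of the 10 genes called higher had a median GC content of 54.7%, against 43.3% for the 2 called lower and 51.5% for the 22 not called, and 11 of the 34 genes passed after an offset for length and GC content.

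Among the receptor subunits, Cd79a (ENSMUSG00000003379, chromosome 7, 24897381 to 24902197, mm10) was higher in the E7 clones and Cd79b did not pass. Cd79a was at 157, 127 and 121 CPM in E7.1 and 125, 131 and 229 CPM in E7.2. It was at 72.6, 91.3 and 67.8 (E6.1) and 54.6, 51.6 and 85.3 CPM (E6.2), and at 98.9, 74.2 and 85.4 CPM in the parental line. Every E7 library was above every E6 and every parental library, with E7.2 replicate 3 the highest of all. The log2 fold change between the exons was 1.08 ± 0.17 (SE, adjusted p = 0.0037, edgeR's quasi-likelihood test), a 2.11-fold difference.
Cd79b was between 180.5 and 328 CPM in all libraries, and its log2 fold change of 0.21 had a 95% interval of -0.01 to 0.43 (adjusted p = 0.187, edgeR's quasi-likelihood test). The ratio of Cd79a to Cd79b in RPKM was 0.347 ± 0.0876 (SD) in the parental line, 0.267 ± 0.0509 in E6.1 and 0.311 ± 0.133 in E6.2. It was 0.484 ± 0.0178 in E7.1 and 0.539 ± 0.130 in E7.2, so that Cd79a stayed the scarcer transcript of the pair in every line.

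Of the 5 tyrosine kinases, Btk, the Tec-family kinase that activates Plcg2, was the one that passed. Btk was at 163, 138 and 139 CPM in E7.1, above all other libraries, and at 115, 109 and 125 CPM in E7.2, overlapping the range of the E6 clones (81.3 to 118 CPM). Its log2 fold change between the exons was 0.41 ± 0.11 (SE, adjusted p = 0.0332, edgeR's quasi-likelihood test). Syk, the kinase that docks on the phosphorylated receptor chains, ran from 65.2 to 85.4 CPM in the E7 clones and from 42.7 to 68.4 CPM in the E6 clones, and its difference of 0.28 did not pass (adjusted p = 0.0593, edgeR's quasi-likelihood test).
The Src-family kinases Lyn, Blk and Fyn did not pass between the exons, with log2 fold changes of -0.05, -0.67 and -0.23. Fyn was at 191, 261 and 257 CPM in E7.1, the lowest 3 values of the 15, and at 361, 369 and 456 CPM in E7.2, within the parental range of 310.5, 421 and 512 CPM. Blk was at 52.3, 59.5 and 162 CPM in E6.2, where replicate 3 alone was far above all other libraries (29.6 CPM at the lowest). Lyn was highest in E6.1, at 95.004, 94.1 and 105 CPM, where no library overlapped any other line. By RPKM, Fyn made up 69.0 ± 4.03% (SD) of the 3 kinases' sum in the parental line and 59.5 ± 0.469% in E7.1, and Lyn 13.7 ± 1.65% and 19.7 ± 4.55%.

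Among the 5 adaptors, Blnk, the scaffold that links Syk to Btk and Plcg2, passed as lower in the E7 clones, with E7.1 alone below the parental range. It was at 105, 141 and 131 CPM in E7.1 and 169.6, 173 and 246 CPM in E7.2, against 223, 183 and 215 (E6.1) and 206, 219 and 284 CPM (E6.2). The 3 E7.1 values were the lowest of all libraries, whereas E7.2 replicate 3 was above most E6 libraries. The parental libraries ran from 156 to 271 CPM, a range that held every E7.2 library. Between the exons the log2 fold change of Blnk was -0.50 ± 0.15 (SE, adjusted p = 0.0493, edgeR's quasi-likelihood test).
Grb2, which couples the receptor to Sos, Bank1, a scaffold for Lyn and calcium channels, Dapp1, a lipid-binding adaptor, and Lat2, a transmembrane adaptor, did not pass. Their log2 fold changes lay between -0.17 (Dapp1) and 0.21 (Lat2), and the 95% interval for Bank1 was -0.15 to 0.31.

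In the phospholipase and exchange factor group 4 of 6 genes differed, 3 higher and 1 lower. Plcg2, which makes the second messengers for calcium and protein kinase C, was at 297, 258 and 262 CPM in E7.1 and 216, 242 and 191 CPM in E7.2. It was at 134, 199 and 149 (E6.1), 111, 107 and 179 (E6.2) and 206, 126 and 119 CPM (parental line). E7.1 was above all other lines, while the lowest E7.2 library fell below the highest E6.1 library and below parental replicate 1. This came to a log2 fold change of 0.73 ± 0.17 (SE, adjusted p = 0.0177, edgeR's quasi-likelihood test).
The exchange factors Vav1 and Vav2 were both higher in the E7 clones. Vav2 (chromosome 2, 27262104 to 27427033) was at 41.7, 43.6 and 42.5 CPM in E7.1 and 49.3, 51.9 and 45.9 CPM in E7.2, against 23.8, 33.9 and 27.1 (E6.1) and 29.2, 29.1 and 40.7 CPM (E6.2). All E7 libraries were above all E6 and all parental libraries (40.3, 35.0 and 33.5 CPM), by a narrow margin over E6.2 replicate 3 and parental replicate 1. On the log2 scale the exons differed by 0.58 ± 0.11 (SE, adjusted p = 0.00826, edgeR's quasi-likelihood test).
Vav1 was at 73.6, 64.4 and 64.2 CPM in E7.1 and 66.7, 72.9 and 82.6 CPM in E7.2, against 60.1, 66.1 and 60.7 (E6.1) and 49.4, 46.0 and 48.5 CPM (E6.2). E6.2 was below both E7 clones in every library, and E6.1 overlapped E7.1. The parental libraries ran from 48.5 to 55.0 CPM, overlapping E6.2 and below every library of E6.1, E7.1 and E7.2. The exons differed by a log2 fold change of 0.37 ± 0.08 (SE, adjusted p = 0.0135, edgeR's quasi-likelihood test).
Sos1, the exchange factor that loads Ras, was lower in the E7 clones. It was at 74.8, 108 and 102 CPM in E7.1 and 101, 104 and 104 CPM in E7.2, against 148, 108 and 125 (E6.1) and 186, 173 and 125 CPM (E6.2). All 6 E7 libraries were below all parental libraries (141, 172 and 162 CPM), and 1 E6.1 library lay within the E7 range. Its log2 fold change was -0.53 ± 0.12 (SE, adjusted p = 0.0188, edgeR's quasi-likelihood test).
Rasgrp3, the other Ras exchange factor of the list, ran from 369 to 477 CPM over the 15 libraries, the smallest ratio of highest to lowest among the 34 genes (1.29, with Pik3ca close behind), and had a 95% interval of -0.24 to 0.12 for its log2 fold change. The GTPase Rac2 was at 192, 198 and 363 CPM in E6.2 and 219.9, 240.0 and 341 CPM in E7.2, with replicate 3 the highest in both, and did not pass (0.10).

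In the PI3K arm 2 of 5 genes were higher in the E7 clones. Pik3r1, the main regulatory subunit of PI3K (chromosome 13, 101680563 to 101768217), was at 66.9, 58.3 and 62.9 CPM in E7.1 and 64.7, 61.8 and 59.8 CPM in E7.2. It was at 43.8, 61.2 and 48.2 (E6.1), 40.7, 40.9 and 33.3 (E6.2) and 66.6, 53.8 and 52.9 CPM (parental line). E6.2 was below every library of every other line, while the E7 clones lay within or near the parental range and 1 E6.1 library lay within the E7 range. The log2 fold change between the exons was 0.50 ± 0.10 (SE, adjusted p = 0.0114, edgeR's quasi-likelihood test).
Akt1, the kinase downstream of PI3K, was at 129, 122 and 127 CPM in E7.1 and 102, 111 and 105 CPM in E7.2. It was at 55.2, 78.9 and 52.7 (E6.1), 51.1, 61.8 and 118 (E6.2) and 101, 58.7 and 53.2 CPM (parental line). The E7 libraries were above all others except E6.2 replicate 3, which lay inside their range. This came to a log2 fold change of 0.74 ± 0.20 (SE, adjusted p = 0.0343, edgeR's quasi-likelihood test).
Pik3ap1, the adaptor that brings PI3K to the receptor complex, reached 76.6, 44.4 and 51.1 CPM in E7.1 but 44.5, 49.1 and 22.2 CPM in E7.2, and did not pass (0.59, adjusted p = 0.0821, edgeR's quasi-likelihood test). The catalytic subunits Pik3cd (0.32, 95% interval -0.01 to 0.64) and Pik3ca (-0.15, -0.32 to 0.01) did not pass either.

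Of the 4 genes of the protein kinase C, NF-kB and NFAT arm, 0 passed between the exons by edgeR or by DESeq2, and 1 of them, Prkcb, had an unadjusted p-value under 0.05. Prkcb was at 872, 851 and 965 CPM in E7.1 and 987, 1013 and 1002 CPM in E7.2, against 1089, 1083 and 1052 (E6.1) and 1375, 1349 and 1026 CPM (E6.2). The parental libraries (883, 1253 and 1282 CPM) spanned most of that range, with replicate 1 the lowest. Several small genes, among them Gm14388 on the same strand, overlap Prkcb.
Malt1, the protease of the NF-kB branch, Bcl10, its adaptor, and the calcium-regulated factor Nfatc1 had log2 fold changes of 0.23, -0.07 and -0.13. Bcl10 ranged only from 61.1 to 83.3 CPM over the 15 libraries. Nfatc1 was at 78.6, 76.04 and 69.6 CPM in the parental line. The E7 clones were at 51.1 to 67.6 CPM, all below the lowest parental library. E6.2, at 67.6 to 69.2 CPM, was also below it in every library, and E6.1 was at 60.4 to 70.6 CPM. Nfatc1 did not pass in either E7 clone (adjusted p = 0.199 in E7.1 and 0.296 in E7.2, edgeR's quasi-likelihood test).

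The inhibitory receptors had no common pattern. Cd72, a lectin-like receptor that recruits Ptpn6, was at 5.78, 10.9 and 9.04 CPM in E7.1 and 10.5, 10.9 and 14.9 CPM in E7.2, against 4.22, 7.07 and 5.68 (E6.1) and 4.21, 4.32 and 8.15 CPM (E6.2). E7.1 overlapped both E6 clones, and the parental libraries ranged widely (17.3, 6.59 and 8.76 CPM), with replicate 1 the highest of all 15. Its log2 fold change was 0.86 ± 0.26 (SE, adjusted p = 0.0484, edgeR's quasi-likelihood test), and the gene Tesk1 overlaps it on the opposite strand at a mean of 4.36 CPM, so that reads of the pair may be mixed where counting ignored strand.
Fcgr2b, the inhibitory receptor for IgG, was at 24.3, 21.6 and 18.6 CPM in E7.1, above all other libraries, and at 11.01, 9.89 and 7.25 CPM in E7.2, the 2 clones of 1 exon lying apart. It was at 15.8, 9.96 and 8.71 CPM in the parental line, 11.9, 14.5 and 13.2 (E6.1) and 8.82, 8.497 and 8.18 CPM (E6.2). The exons did not differ past the threshold (0.42, adjusted p = 0.0869, edgeR's quasi-likelihood test).
Cd22, the sialic-acid-binding receptor, ranged from 51.1 to 154 CPM, with E6.2 alone spanning 113, 51.1 and 123 CPM, and Pirb stayed within the low range given above. Their log2 fold changes were -0.09 and 0.46, the second with a 95% interval of -0.44 to 1.36.

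The inhibitory phosphatases showed the clearest difference of the pathway. Ptpn6 (ENSMUSG00000004266, chromosome 6, 124720707 to 124738714, mm10), the tyrosine phosphatase SHP-1, was at 198, 161 and 137 CPM in E7.1 and 138, 161 and 151 CPM in E7.2. It was at 66.0, 105 and 72.4 (E6.1) and 55.9, 56.2 and 61.0 CPM (E6.2), and at 118, 52.4 and 58.2 CPM in the parental line. Every E7 library was above every other library, with parental replicate 1 and E6.1 replicate 2 the nearest. The log2 fold change between the exons was 1.20 ± 0.19 (SE, adjusted p = 0.00334, edgeR's quasi-likelihood test), a 2.30-fold difference that stayed between 1.13 and 1.32 on the log2 scale when single libraries were left out.
Inpp5d (ENSMUSG00000026288, chromosome 1, 87620312 to 87720507), the lipid phosphatase SHIP-1, was at 155, 127 and 125 CPM in E7.1 and 112, 123 and 106 CPM in E7.2, and at 114, 71.0 and 68.2 CPM in the parental line. It was at 69.5, 92.2 and 68.0 (E6.1) and 68.9, 56.7 and 52.1 CPM (E6.2). All E7 libraries were above all E6 libraries, while parental replicate 1 lay inside the E7 range and the other 2 parental libraries below it. On the log2 scale the exons differed by 0.88 ± 0.14 (SE, adjusted p = 0.00362, edgeR's quasi-likelihood test).
Dok3, an inhibitory adaptor that holds back calcium signalling, was low and uneven, from 2.09 to 17.2 CPM, with replicate 3 the highest in both E6.2 and E7.2, and did not pass (0.54, 95% interval -0.37 to 1.44).
Ratios set these phosphatases against the kinases they oppose. The ratio of Ptpn6 to Syk in RPKM was 7.22 ± 0.612 in E7.1 and 7.16 ± 0.740 in E7.2, against 4.02 ± 0.955 in E6.1, 3.71 ± 0.920 in E6.2 and 4.43 ± 2.17 in the parental line (mean ± SD, n = 3), where replicate 1 alone was at 6.93. The ratio of Inpp5d to Pik3cd was 2.13 ± 0.366 in E7.1 and 1.66 ± 0.0795 in E7.2, against 1.36 ± 0.111 in E6.1, 1.27 ± 0.419 in E6.2 and 1.64 ± 0.264 in the parental line. These ratios were not tested.

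**Figure D4:**
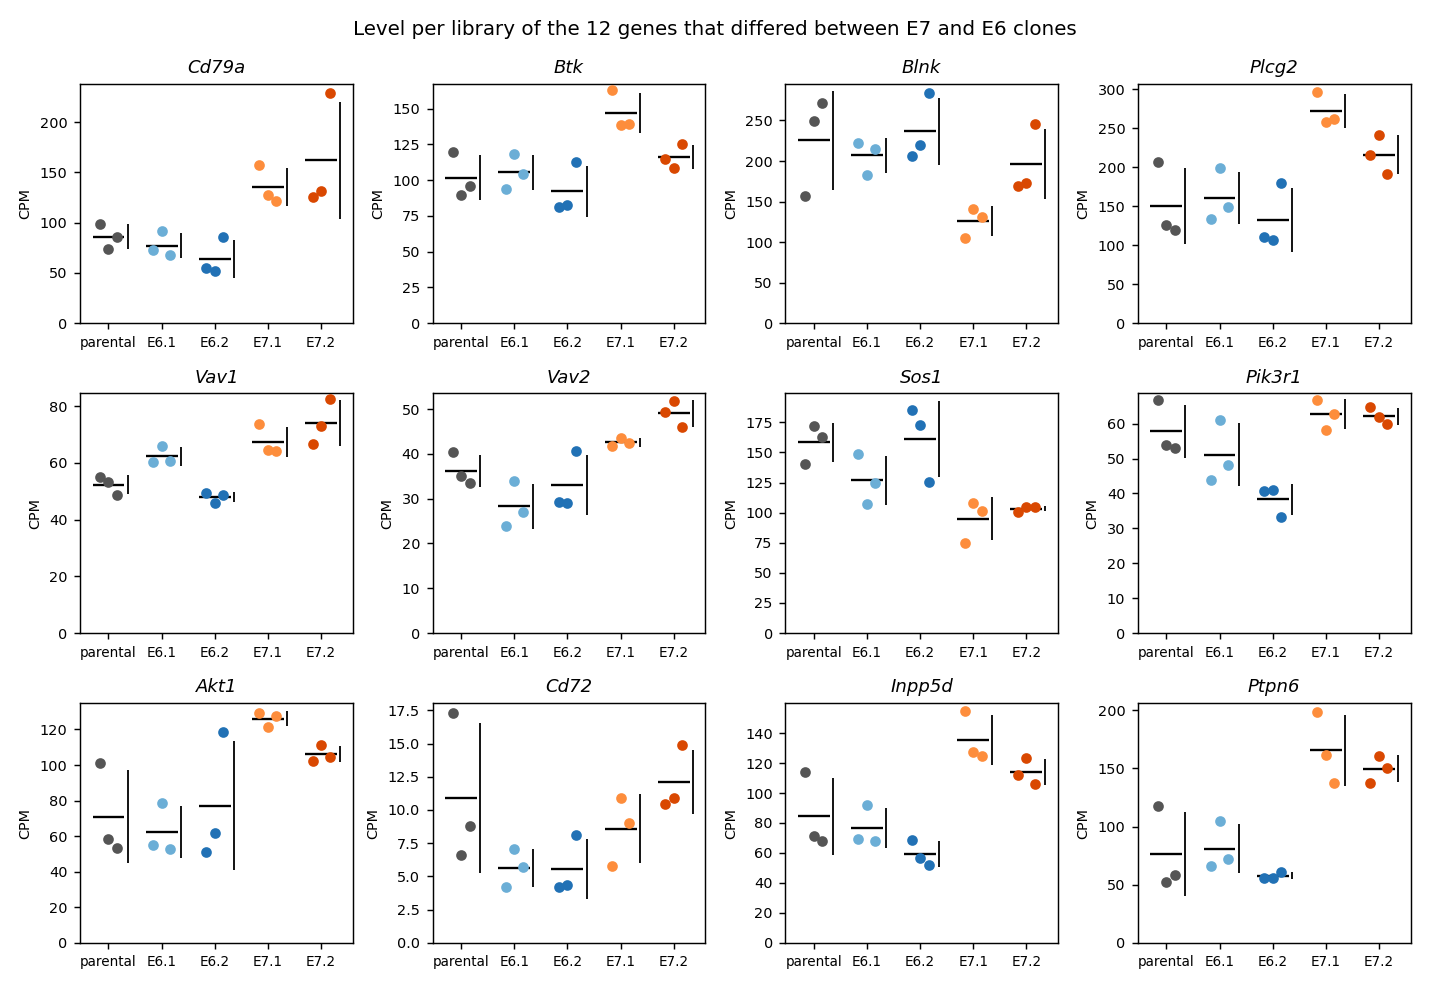
Level in CPM (each axis starts at 0) of the 12 genes that differed between the E7 and the E6 clones. Points are libraries in replicate order, the horizontal bar is the mean and the vertical bar the SD (n = 3). For Cd79a, Vav2, Inpp5d and Ptpn6 every E7 point is above every E6 point.

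The clones were then compared one with another, in 6 pairs and 204 tests of the 34 genes. Of these, 21 passed edgeR's quasi-likelihood test, covering 13 genes, and 20 of the 21 were between an E7 and an E6 clone. Over all tested genes too, most calls were in such pairs (2346, 450, 312 and 49 calls) rather than within an exon (173 and 82). The split is therefore not particular to these genes. E7.1 against E6.2 gave 12 (16.9% of all tested genes), namely Inpp5d, Fcgr2b, Btk, Ptpn6, Cd79a, Plcg2, Syk, Pik3r1, Vav1 and Pik3ap1 higher and Sos1 and Blnk lower. E7.2 against E6.2 gave 5, all higher (2.24%), namely Vav1, Cd79a, Ptpn6, Pik3r1 and Inpp5d. E7.1 against E6.1 gave 3 (3.24%), with Inpp5d (0.82) and Ptpn6 (1.03) higher and Fyn (-0.75) lower.
E7.2 against E6.1 gave 0 (0.352% of all tested genes), with 8 genes at an unadjusted p under 0.05 (11.6%) and 2 called by DESeq2. Within exon 6, E6.2 against E6.1 gave 0 (1.24%), with 7 at an unadjusted p under 0.05 (12.9%), all lower in E6.2, and 1 called by DESeq2. Within exon 7, E7.2 against E7.1 gave 1 (0.59%), Fcgr2b, which was lower in E7.2 by a log2 fold change of -1.19 ± 0.22 (SE, adjusted p = 0.0246, edgeR's quasi-likelihood test). E6.2 and E7.1 were each part of most of these calls, and of most calls over all tested genes as well. In E6.2, replicates 1 and 3 stood further from their line's mean over all genes than any other library of the 15 (SD of log2 deviations 0.597 and 0.662). The part of these libraries in the calls was not tested. The number of calls was 46 without E6.2 replicate 3 and 9 without E7.1 replicate 1.

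Beyond the 34 genes, 120 further genes of the pathway and its early targets were looked up, and 108 were tested. In E6.1, 1 was higher than in the parental line (0.324% of all tested genes were called there) and in E6.2 2 were lower (1.17%). In E7.1, 2 were higher and 3 lower (1.22%), in E7.2 1 was higher (0.295%), and for the mean of the 4 clones 1 was lower (0.503%). Between the exons 8 were higher and 8 lower in the E7 clones, 16 of 108, a share near the 12.1% of all tested genes given above, with a median log2 fold change of 0.09. These calls were not repeated under other settings.
The calls against the parental line included genes of the Ras and MAP kinase branch. Map2k1, the MAP kinase kinase MEK1, was at 402, 412 and 445 CPM in E6.1 and 164, 186 and 179 CPM in the parental line, and E6.1 stood above all other libraries (log2 fold change 1.25, adjusted p = 0.00108, edgeR's quasi-likelihood test). The Ras exchange factor Rasgrp1 was at 22.4, 28.8 and 26.8 CPM in E6.2 against 134, 82.4 and 76.3 CPM in the parental line (-1.91, adjusted p = 0.00198, edgeR's quasi-likelihood test).
In E7.1, Hras (0.82) and the cortactin-like adaptor Hcls1 (0.64) were higher, and the phosphatase Ptpn12 (-0.73), the Ras exchange factor Sos2 (-0.69) and the activation marker Cd69 (-1.53) were lower. In E7.2 the exchange factor Rasgrp2 was higher (0.98), at 31.6, 33.5 and 51.1 CPM against 21.3, 19.1 and 18.5 CPM. The complement coreceptor Cr2 was lower for the mean of the clones (-0.53, adjusted p = 0.0429, edgeR's quasi-likelihood test), with 57.5, 52.8 and 52.1 CPM in the parental line and every library of the 4 clones below these.
Between the exons, the genes higher in the E7 clones included the phosphatase Dusp2 (0.94), Rasgrp1 (0.91), Hcls1 (0.48), Csk (0.44), the kinase that restrains Src-family members, the p38 kinase Mapk14 (0.43), Nras (0.34) and the phosphatase SHP-2, Ptpn11 (0.28). Lower were the calcineurin subunit Ppp3cc (-1.23), the NF-kB subunit Relb (-0.74), Cd69 (-0.71), Map2k1 (-0.59), Sos2 (-0.49), Braf (-0.44), Ptpn12 (-0.44) and the IkB kinase Chuk (-0.44). Both Sos genes were thus lower in the E7 clones. Rasgrp1 was at 44.0, 84.8 and 91.1 CPM in E7.1 and 100.5, 103 and 79.9 CPM in E7.2, overlapping the parental line and E6.1 (59.2, 88.6 and 79.5 CPM), so that E6.2 alone stood apart. For Map2k1 it was E6.1 alone, since the E7 clones were not below E6.2 (log2 fold change 0.09 for E7.1 and 0.19 for E7.2 against E6.2). Relb and Cd69 had their lowest mean in E7.1 (16.7 and 4.69 CPM). E7.2 was close to E6.1 for both (log2 fold changes of -0.04 and -0.10 against E6.1).
The 12 genes that had too few reads to be tested were Vav3, Nck2, Gab1, Clnk, Pik3r5, Cd5, Ifitm1, Ifitm2, Ifitm3, Cd38, Ccl3 and Ccl4.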

How the data were processed

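The authors deposited raw read counts per gene for each of the 15 libraries, made with featureCounts after alignment with HISAT to mm10, per the submitters' processing notes. Strand handling was not given in the sources used here. The unit is counts of reads, not normalised, and the 92 spike-in features, which held 0 reads, were left out. The genes and the lists of further pathway genes were chosen with earlier results of these data known. Of the genes in the tables, 40254 of 41388 have a symbol, which was used for matching.

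Counts of all 15 libraries were fitted together in edgeR 4.0.16 (R 4.3.3) with line as the only term, filterByExpr and TMM scaling. The quasi-likelihood test with Benjamini-Hochberg adjustment over the 13904 genes tested gave the calls (adjusted p under 0.05, no fold threshold). All 34 genes are named, with further pathway genes named where they passed against the parental line, between the exons or among the 5 lines, except for some that are not reported here. CPM and RPKM use TMM-scaled library sizes, and RPKM the exon length in the deposited tables. The steps were tested on simulated counts. Alternatives were DESeq2 1.42.0, its size factors, no filter, the newer quasi-likelihood method, a replicate block, fits of 6 libraries and leaving out libraries, and, chosen after seeing the data, a length and GC offset and leaving out 3 libraries together. Depth was 26328054 to 39181530 counts, so 3 reads, the limit used for a count of 0, were 0.0751 to 0.118 CPM.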

Additional observations from a re-analysis of the deposited data

Results flagged for a closer look

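The results listed here are differences between clones that carry different mutations of Foxp1, each from a test of the difference itself. Between the E7 and the E6 clones the log2 fold changes were 1.20 for Ptpn6, 1.08 for Cd79a, 0.88 for Inpp5d, 0.86 for Cd72, 0.74 for Akt1, 0.73 for Plcg2, 0.58 for Vav2, 0.50 for Pik3r1, 0.41 for Btk and 0.37 for Vav1. They were -0.50 for Blnk and -0.53 for Sos1.

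Between E7.1 and E6.2 the log2 fold changes were 1.52 for Ptpn6, 1.34 for Fcgr2b, 1.19 for Inpp5d, 1.09 for Cd79a, 1.08 for Pik3ap1, 1.04 for Plcg2, 0.71 for Pik3r1, 0.67 for Btk, 0.51 for Syk and 0.49 for Vav1. They were -0.91 for Blnk and -0.76 for Sos1. Between E7.2 and E6.2 they were 1.38 for Ptpn6, 1.34 for Cd79a, 0.94 for Inpp5d, 0.70 for Pik3r1 and 0.63 for Vav1. Between E7.1 and E6.1 they were 1.03 for Ptpn6, 0.82 for Inpp5d and -0.75 for Fyn. Between the clones of exon 7, Fcgr2b differed by -1.19 (E7.2 against E7.1).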

How the results depend on the processing

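No alternative reversed a direction that had been called. Of the counts of genes called, E7.1 against the parental line (0 as reported) was the least stable: it was 5 with no filter, 9 with DESeq2, 3 with the newer quasi-likelihood method, 1 with the length and GC offset, 13 without replicate 3 of E6.2 and E7.2, and 12 without 3 libraries together (parental replicate 1, E6.2 replicates 1 and 3, chosen after seeing the data; E7.2 replicate 3 stayed in, although it stood further from its line, with an SD of log2 deviations of 0.540 against 0.415 for parental replicate 1). With a replicate block it was 3, and the block left every other count of genes called within 1.5 times its value, with Cd72 no longer passing between the exons (adjusted p = 0.0603, edgeR's quasi-likelihood test). Deviations of same-numbered libraries of a clone and the parental line had correlations from -0.124 to 0.213. Pairing of replicate numbers between the clones was not examined.

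DESeq2 called 1 gene in E6.2, 3 in E7.2, 16 for any difference among lines and 39 over the 6 clone pairs. Without replicate 3 of E6.2 and E7.2 these counts were 1, 1, 19 and 53, and 21 genes passed between the exons. Without the 3 libraries, which leaves 1 of E6.2 that is assumed to vary like the other lines, 7 passed in E7.2, 14 among lines and 35 over the pairs. Leaving out each library in turn gave 0 to 0 genes in E6.1 and E6.2, 0 to 11 in E7.1, 0 to 1 in E7.2, 0 to 1 for the mean of the clones, 5 to 18 between the exons, 4 to 16 among lines and 9 to 46 over the pairs. Shares of all tested genes under these alternatives are not given here, so the counts show how the calls move and not a result about the list. The causes were not tested. With 3 libraries a line, the median 95% interval reached 0.40 on the log2 scale to either side of a clone's value, and Pirb was close to the limit of detection.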
